A study of Homo sapiens with 12 samples.

Results

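The transcripts of MV4-11 cells that received a short hairpin RNA against CYTH4 (shCYTH4) were compared with those of MV4-11 cells that received a control hairpin (shControl). MV4-11 is a human acute myeloid leukaemia cell line of monocytic character with a KMT2A gene fusion and an internal duplication in the receptor tyrosine kinase FLT3. Both arms held 3 libraries of poly(A) RNA, so 6 of the 12 libraries of the study are described, and the other 6 are the same arms in the leukaemia line THP-1. The members are the genes with at least 1 FPKM in at least 3 of these 6 libraries, which were 10907 of the 34626 genes listed. FPKM, the unit of every level below, is the number of sequenced fragments scaled to transcript length and library depth. The comparison asks what the hairpin against CYTH4 does to the transcripts of this line. Both arms carry a hairpin, the labels give bone marrow as the source and no time, dose, vector or number of hairpins, and they do not say whether the libraries of an arm came from separate cultures. Spread between these samples, which may be only technical, is therefore all that the p-values measure.

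CYTH4 encodes cytohesin 4, an exchange factor that loads GTP onto ARF GTPases, the switches of vesicle traffic and cortical actin, and it is found mainly in blood cells. Among the genes that differed between the arms were targets of the integrated stress response and of NF-kB. In the integrated stress response, kinases that sense uncharged tRNA, misfolded protein, haem shortage or viral RNA phosphorylate a translation initiation factor, most protein synthesis slows, and translation of the transcription factor ATF4 goes up. ATF4 and its partners then switch on genes for amino acid synthesis and uptake and for tRNA charging. NF-kB is the family of transcription factors through which monocytic cells switch on cytokines, chemokines and their own feedback inhibitors.

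The 6 libraries were of even depth but not equally alike. They held 72546581 to 77782719 estimated counts, and 10251 to 10892 genes reached 1 FPKM. shCYTH4 replicate 1 stood apart from the others of its arm, with a median absolute log2 difference over the tested genes of 0.262 from replicate 2 and 0.289 from replicate 3, while replicates 2 and 3 differed by 0.0909. Among the shControl libraries, replicate 1 differed by 0.215 and 0.263 from the others, which differed by 0.142. Mitochondrial transcripts took 6.49 ± 0.703% of the counts in shCYTH4 and 7.30 ± 0.744% in shControl (SD, n = 3 each), with an exact two-sided permutation p of 0.3, where 0.1 is the smallest that 3 against 3 libraries allow. Of the defining myeloid markers, LYZ, lysozyme, was at 1097 FPKM or more in every library and the granule protease PRTN3 averaged 1045 FPKM in shCYTH4 and 783 FPKM in shControl, but CD14, the lipopolysaccharide co-receptor of monocytes, was at 0.346 FPKM or less and FCGR3A was at 0 in all 6. The T cell gene CD3D was at 0 in all 6 libraries, and the B cell markers summed to 2.00 to 2.57 FPKM in shCYTH4 and 1.88 to 2.12 FPKM in shControl.

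CYTH4 itself (ENSG00000100055, chromosome 22, positions 37282027 to 37315341) was not measurably lower in the libraries labelled shCYTH4. Its level was 15.5, 20.7 and 22.3 FPKM in shCYTH4 replicates 1, 2 and 3, against 20.9, 16 and 18.1 FPKM in the shControl replicates. The arms overlapped throughout, with the lowest and the highest value both in shCYTH4. The means were 19.5 ± 3.58 FPKM in shCYTH4 and 18.3 ± 2.44 FPKM in shControl (SD, n = 3 each), and the fitted log2 change was 0.03 (SE 0.17, 95% interval -0.35 to 0.42, adjusted p = 0.94). The sign turned without shControl replicate 2 (-0.06), shCYTH4 replicate 2 (-0.01) or shCYTH4 replicate 3 (-0.08). What follows therefore compares libraries that differ by their label and not by a measured loss of CYTH4 mRNA, and the CYTH4 protein was not measured. ARF6, the GTPase that cytohesins load at the cell surface, averaged 26.9 ± 7.5 FPKM in shCYTH4 and 23.4 ± 4.38 FPKM in shControl (adjusted p = 0.753).

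Of the 10907 genes tested, 184 (1.69%) were called at an adjusted p under 0.05, 97 higher (0.889%) and 87 lower (0.798%) in shCYTH4. The median absolute change of the called genes was 1.17 on the log2 scale, and 30 of them changed by at least 2 on that scale, 16 higher and 14 lower. At an unadjusted p under 0.05 there were 1718 genes. The 6 values of a gene separated the arms without overlap for 2775 genes (25.4%), 1746 higher (16%) and 1029 lower (9.43%), and for all 184 called genes. To be tested, 31 genes needed their shControl libraries and 87 their shCYTH4 libraries, with no library of the other arm at 1 FPKM; 18 of the 31 were called lower and 25 of the 87 higher. The count of calls depended on single libraries: it was 83 to 94 without 1 of the shControl libraries, 108 and 122 without shCYTH4 replicates 2 and 3, and 398 without shCYTH4 replicate 1, and 60 genes, 29 higher and 31 lower, were called in all 6 of these fits.

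**Figure D1:**
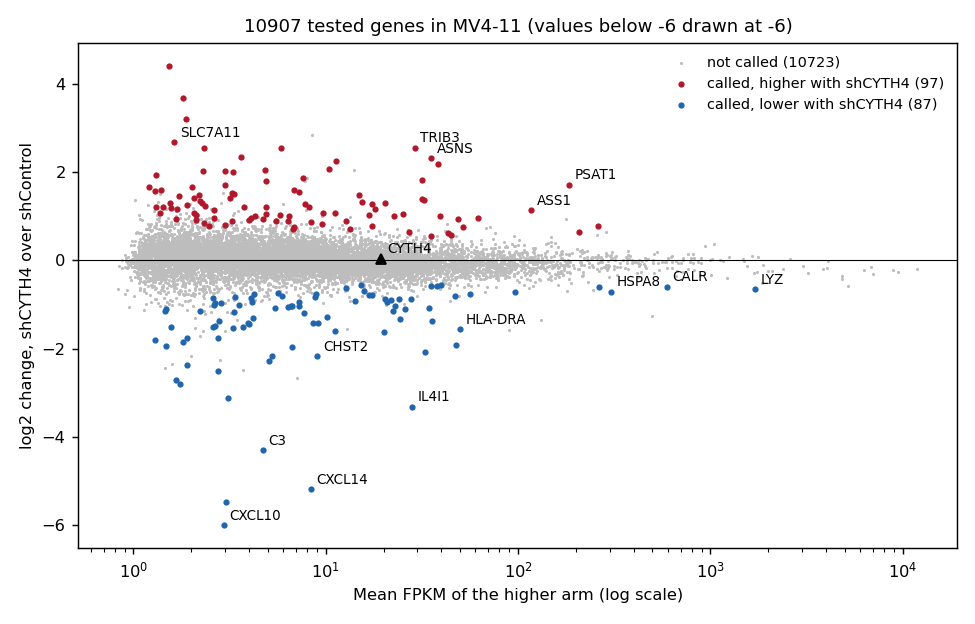
Each point is 1 of the 10907 tested genes, with the mean FPKM of its higher arm on a log horizontal axis and its log2 change, shCYTH4 over shControl, on the vertical axis; the 97 genes called higher are red, the 87 called lower are blue, and genes below -6 are drawn at -6. The lowest points are CXCL10, ENSG00000257390 (-5.47), which has no symbol, and CXCL14, and CYTH4 is marked by a triangle at 0.03.

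Targets of the integrated stress response were higher in shCYTH4. Of the 26 tested members of that list, 11 were called higher and 0 lower in shCYTH4, against 0.889% and 0.798% of all tested genes. In 18 all shCYTH4 libraries lay above all shControl libraries and in 1 below, against 16% and 9.43% of all tested genes. The filter was passed through shCYTH4 libraries alone by 2 members, 1 of them called (ATF3, described below), so their direction was fixed by the filter. The median log2 change of the list was 0.47, against 0.02 over all tested genes. TRIB3, a pseudokinase that binds and restrains ATF4, led the list with 27.1, 29.1 and 31.2 FPKM in shCYTH4, against 5.64, 3.32 and 5.38 FPKM in shControl. Every shCYTH4 library lay far above every shControl library (log2 2.55, SE 0.21, adjusted p = 0.000411).

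CHAC1, an enzyme that cleaves glutathione, stood at 10.7, 11.7 and 11.8 FPKM in shCYTH4, against 3.02, 1.74 and 2.16 FPKM in shControl (log2 2.24, SE 0.23, adjusted p = 0.000972). DDIT4, which restrains the growth kinase complex mTORC1, stood at 9.85, 11.1 and 10.3 FPKM in shCYTH4, against 2.76, 2.01 and 2.41 FPKM in shControl (log2 2.06, SE 0.18, adjusted p = 0.000445). SESN2, sestrin 2, a leucine sensor upstream of the same complex, stood at 11.9, 16 and 17.1 FPKM in shCYTH4, against 5.45, 4.93 and 5.12 FPKM in shControl (log2 1.48, adjusted p = 0.00185). In all 3 genes the arms were well apart and the shCYTH4 libraries close to each other, except that SESN2 was lower in shCYTH4 replicate 1 than in the other two. NIBAN1, a stress-induced regulator of translation, had 4.16, 4.95 and 5.49 FPKM in shCYTH4, against 1.27, 0.797 and 1.34 FPKM in shControl (log2 2.04, adjusted p = 0.00121). VEGFA, the vascular growth factor, had 5.4, 4.44 and 4.77 FPKM in shCYTH4, against 2.25, 2.04 and 2.53 FPKM in shControl (log2 1.04, adjusted p = 0.0039). The calls of these 6 genes held in each of the 6 fits without 1 library.

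Transcription factors of the response were measured too. DDIT3, also called CHOP, averaged 8.15 ± 1.6 FPKM in shCYTH4 and 3.36 ± 0.408 FPKM in shControl (log2 1.22, adjusted p = 0.0131), and ATF5 averaged 48.9 ± 4.78 FPKM in shCYTH4 and 24.4 ± 3.20 FPKM in shControl (log2 0.94, adjusted p = 0.00857). Their calls were kept in 3 and 4 of the 6 fits without 1 library. ATF3, a repressor induced by ATF4, had 1.15, 1.59 and 1.55 FPKM in shCYTH4, against 0.629, 0.437 and 0.735 FPKM in shControl, a call near the threshold (log2 1.20, adjusted p = 0.0464) that held only without shCYTH4 replicate 1 among the fits leaving out a library, with 0.109 to 0.17 in the other 5. ATF4 itself did not pass the test over all genes: its mRNA was at 284, 252 and 235 FPKM in shCYTH4, against 176, 147 and 172 FPKM in shControl (log2 0.58, SE 0.13, adjusted p = 0.0509). The arms of ATF4 did not overlap, and its level was the highest of the list in this line. The DNA-binding partner CEBPB, by contrast, had 6.41, 2.63 and 2.85 FPKM in shCYTH4, against 2.67, 5.72 and 4.48 FPKM in shControl, with overlapping arms (adjusted p = 0.857). Without shControl replicate 2 or without shControl replicate 3 the list had 7 calls, and in a fit over all 12 libraries of both lines it had 4. In that larger fit CHAC1 (adjusted p = 0.414), VEGFA (0.33), SESN2 (0.183) and DDIT4 (0.0512) were no longer called. The spread it uses includes THP-1, where CHAC1 was at 6.30 ± 9.55 FPKM with shCYTH4 (SD, n = 3).

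**Figure D2:**
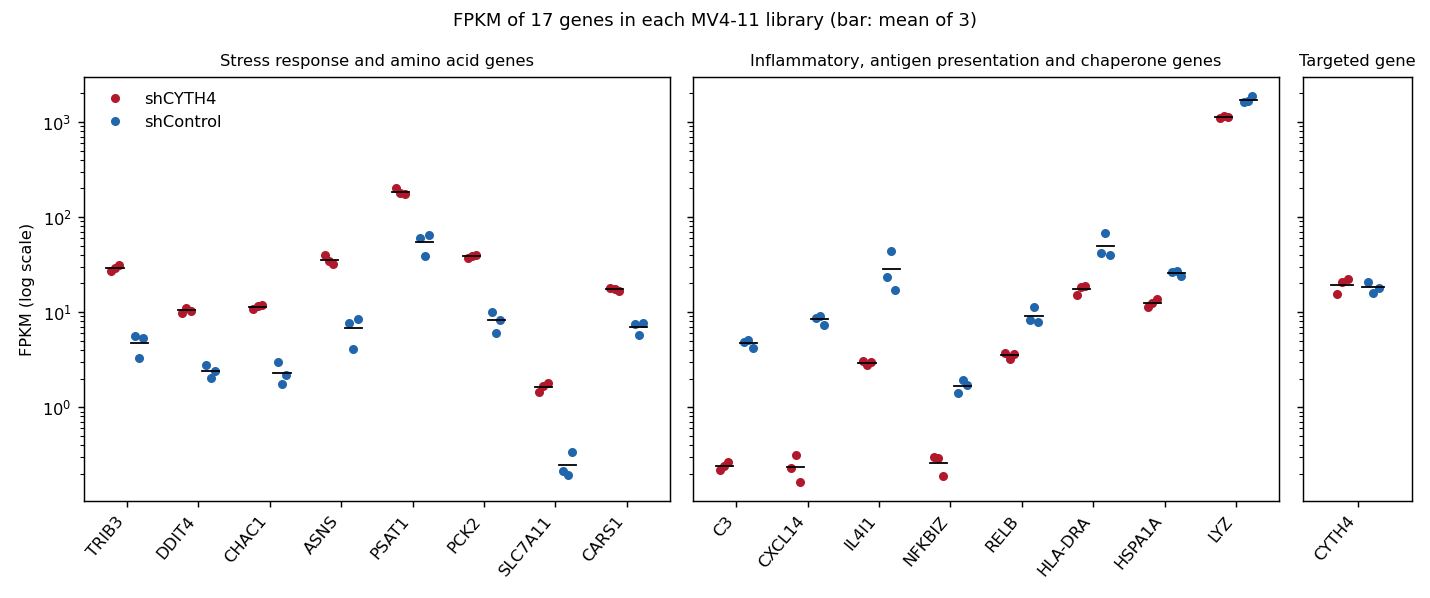
FPKM on a log axis of 17 named genes in each of the 6 MV4-11 libraries, shCYTH4 in red on the left of each pair and shControl in blue on the right. For TRIB3 the 3 shCYTH4 libraries lie at 27.1 to 31.2 FPKM and the shControl libraries at 3.32 to 5.64 FPKM, and for C3 at 0.220 to 0.267 and 4.21 to 5.09 FPKM, while the arms of CYTH4 overlap.

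Enzymes that make serine, asparagine, one-carbon units and cysteine were higher as well. Of 28 tested enzymes of this list, 11 were called higher and 0 lower, against 0.889% and 0.798% of all tested genes. In 15 of them every shCYTH4 library was above every shControl library and in 3 below, against 16% and 9.43% of all tested genes. The change was positive in 23 and negative in 5, and the median log2 change was 0.29. PSAT1, the transaminase of serine synthesis, was the most abundant of those called, with 200, 179 and 176 FPKM in shCYTH4, against 59.5, 38.5 and 64.5 FPKM in shControl (log2 1.72, SE 0.18, adjusted p = 0.00121). The other enzymes of that path moved with it: PHGDH, its first step, averaged 31.8 ± 1.75 FPKM in shCYTH4 and 8.65 ± 3.66 FPKM in shControl (log2 1.82, adjusted p = 0.0228), and PSPH, its last step, averaged 20.4 ± 1.11 FPKM in shCYTH4 and 7.98 ± 0.942 FPKM in shControl (log2 1.29, adjusted p = 0.00153). The PHGDH call was kept in 2 of the 6 fits without 1 library, with adjusted p up to 0.167.

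ASNS, asparagine synthetase, had 39.8, 34.6 and 31.8 FPKM in shCYTH4, against 7.70, 4.14 and 8.56 FPKM in shControl (log2 2.32, adjusted p = 0.00105). CTH, which makes cysteine from cystathionine, had 5.86, 6.26 and 5.36 FPKM in shCYTH4, against 0.884, 0.677 and 1.33 FPKM in shControl (log2 2.54, adjusted p = 0.000831). PCK2, the mitochondrial enzyme that makes phosphoenolpyruvate, had 36.9, 39.0 and 39.5 FPKM in shCYTH4, against 10.1, 6.04 and 8.33 FPKM in shControl (log2 2.18, adjusted p = 0.000411). For each of these 3 genes the arms were far apart, and shControl replicate 2 was the lowest of the 6 libraries. ASNS overlaps an unnamed gene on the same strand, so its level is uncertain to that extent. GPT2, mitochondrial alanine transaminase, had 30.7, 33.6 and 33.4 FPKM in shCYTH4, against 12.8, 11.5 and 12.1 FPKM in shControl (log2 1.37, adjusted p = 0.000414). MTHFD2, of the mitochondrial folate path, had 36.3, 30.3 and 28.5 FPKM in shCYTH4, against 11.2, 10.1 and 13.6 FPKM in shControl (log2 1.40, adjusted p = 0.00102). Both separated the arms with little spread inside either.

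The rise did not cover the whole list. SHMT2, the serine hydroxymethyltransferase of mitochondria, averaged 96.5 ± 15.7 FPKM in shCYTH4 and 74.8 ± 9.33 FPKM in shControl with overlapping arms (adjusted p = 0.381), and ALDH18A1, the entry to proline synthesis, averaged 34.8 ± 1.07 FPKM in shCYTH4 and 41.6 ± 1.17 FPKM in shControl (adjusted p = 0.225). ASS1, argininosuccinate synthase, which is outside the list, had 103, 128 and 120.5 FPKM in shCYTH4, against 64.8, 31.9 and 57.2 FPKM in shControl. Its arms did not overlap, but the call (log2 1.14, adjusted p = 0.0442) held in none of the 6 fits without 1 library, where the adjusted p was 0.0548 to 0.141. In the fit over all 12 libraries 3 enzymes of the list were called, and ASNS (0.129), PSAT1 (0.268), CTH (0.149), GPT2 (0.168) and PCK2 (0.0505) were not.

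Amino acid carriers and aminoacyl-tRNA synthetases, the enzymes that load amino acids onto tRNA, followed in part. Of 22 tested transporters 4 were called higher and 0 lower (median log2 0.21), and of 20 cytosolic synthetases 4 were called higher and 0 lower (median log2 0.52), against 0.889% and 0.798% of all tested genes. Of the 4 called transporters, 2 passed the filter through shCYTH4 libraries alone, SLC7A11 among them, so their direction was fixed by the filter. The transporters had changes of both signs, 13 positive and 9 negative. Of the 22, 9 lay wholly above and 5 wholly below shControl, against 16% and 9.43% of all tested genes. SLC7A11, the cystine importer, had 1.45, 1.68 and 1.78 FPKM in shCYTH4, against 0.212, 0.192 and 0.339 FPKM in shControl (log2 2.67, SE 0.24, adjusted p = 0.000445). SLC3A2, the heavy chain it pairs with, had 53.5, 51.0 and 51.4 FPKM in shCYTH4, against 31.6, 29.6 and 27.1 FPKM in shControl (log2 0.76, adjusted p = 0.0101). The arms of both were apart, and the SLC3A2 call was lost without shControl replicate 2 (0.069) or 3 (0.0706). SLC1A5, a glutamine carrier, had 204, 205 and 215 FPKM in shCYTH4, against 139, 118 and 126 FPKM in shControl (log2 0.65, adjusted p = 0.0257), a call kept in 2 of the 6 fits without 1 library. SLC7A5, the leucine carrier, was not called at 123, 196 and 213 FPKM in shCYTH4, against 104, 75.9 and 86.4 FPKM in shControl (adjusted p = 0.0631), with shCYTH4 replicate 1 well under the other two; without that library its adjusted p was 0.00187.

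CARS1, cysteinyl-tRNA synthetase, had 18, 17.5 and 16.8 FPKM in shCYTH4, against 7.54, 5.68 and 7.72 FPKM in shControl (log2 1.27, adjusted p = 0.00159). GARS1, glycyl-tRNA synthetase, had 27.2, 24.1 and 24.1 FPKM in shCYTH4, against 12, 10.1 and 12.8 FPKM in shControl (log2 1.06, adjusted p = 0.00216). These calls held in each of the 6 fits without 1 library. AARS1, alanyl-tRNA synthetase, had 61.1, 60.6 and 63.4 FPKM in shCYTH4, against 34.3, 25.1 and 32.1 FPKM in shControl (log2 0.96, adjusted p = 0.00745), and lost its call without shControl replicate 3 (0.0654). Of the 20 synthetases, 13 had every shCYTH4 library above every shControl library and 1 had every one below, against 16% and 9.43% of all tested genes. Without shControl replicate 3 the transporters had 1 call and the synthetases 2, without shControl replicate 2 the transporters had 2, and without shCYTH4 replicate 1 both lists had 7. Over all 12 libraries the transporters had 1 call, SLC3A2 (0.0168), and the synthetases had 0.

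The proximal promoters of these genes were searched for the letters TGATGNAA on both strands, the core of the C/EBP-ATF response element through which ATF4 acts. Promoters were read from RefSeq (GRCh38.p14), from 250 bases before to 50 bases after the start, and 3.62% of the 35116 windows in that table hold the letters, as do 2.36% of the 8108 tested genes with a window. A gene with several starts has several windows and was counted once. Windows were found for 74 of the 97 genes called higher (76.3%) and 52 of the 87 called lower (59.8%), under the 80% needed, so a comparison of shares between these sets is void. Among genes with a window, the letters occurred in 17 of 74 called higher and 0 of 52 called lower, counts that are therefore not compared. Of the lists with enough windows, 7 of 16 synthetases held them, 5 of 19 transporters, 5 of 24 stress response genes and 0 of 22 NF-kB genes. Matches are given for 6 genes that were called higher, 58 bases each in the direction of the gene, with the matched letters in capitals (reversed and complemented where they lie on the other strand). They are CHAC1 at chr15:40953237-40953294 on the + strand, ASNS at chr7:97872444-97872501 on the - strand, GARS1 at chr7:30594820-30594877 on the + strand, AARS1 at chr16:70289661-70289718 on the - strand, SLC1A5 at chr19:46784879-46784936 on the - strand and SYTL1 at chr1:27341951-27342008 on the + strand. A match describes these letters and is not a measured site.
CHAC1: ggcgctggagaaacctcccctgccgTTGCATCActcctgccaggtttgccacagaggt
ASNS: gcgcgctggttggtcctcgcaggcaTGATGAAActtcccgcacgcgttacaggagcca
GARS1: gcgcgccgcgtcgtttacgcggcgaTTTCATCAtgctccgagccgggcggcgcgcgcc
AARS1: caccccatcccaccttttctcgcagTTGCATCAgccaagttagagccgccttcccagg
SLC1A5: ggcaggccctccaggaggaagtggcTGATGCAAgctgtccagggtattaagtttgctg
SYTL1: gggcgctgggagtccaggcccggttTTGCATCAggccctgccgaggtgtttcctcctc

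Endoplasmic reticulum chaperones moved in both directions. Of 25 tested members 0 were called higher and 1 lower, against 0.889% and 0.798% of all tested genes, counts near those shares for a list of this size. The median log2 change was 0.01, with 13 changes positive and 12 negative. In 5 every shCYTH4 library lay above every shControl library and in 5 below, against 16% and 9.43% of all tested genes. HSPA5, the chaperone BiP, averaged 96.1 ± 13.5 FPKM in shCYTH4 and 99.6 ± 10.7 FPKM in shControl with overlapping arms (adjusted p = 0.737). The called member was CALR, calreticulin, with 399, 414 and 417 FPKM in shCYTH4, against 641, 583 and 567 FPKM in shControl (log2 -0.60, adjusted p = 0.0304). Its arms were apart, but the call held only without shCYTH4 replicate 1 among the 6 fits leaving out a library, with 0.077 to 0.122 in the other 5. Cytosolic heat shock chaperones were lower in part, with 3 of 21 tested members called lower, against 0.798% of all tested genes, and 0 higher (median log2 -0.28). HSPA1A, an inducible HSP70, had 11.3, 12.5 and 13.7 FPKM in shCYTH4, against 26.2, 27.0 and 24.1 FPKM in shControl (log2 -1.10, adjusted p = 0.00329), and its near-identical copy HSPA1B averaged 11.2 ± 1.29 FPKM in shCYTH4 and 20.8 ± 2.78 FPKM in shControl (log2 -0.95, adjusted p = 0.016). How the counting split reads between these copies is not stated, so their separate levels are uncertain. HSPA8, the constitutive HSP70, had 203, 193 and 182 FPKM in shCYTH4, against 273, 321 and 319 FPKM in shControl (log2 -0.71, adjusted p = 0.00907). The HSPA8 call was lost without shControl replicate 2 (0.0656) or 3 (0.0653), the HSPA1B call without shControl replicate 1 (0.0741) or 2 (0.0906), and 0 members were called in the fit over all 12 libraries.

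Genes of the NF-kB system were lower in shCYTH4. Of 26 tested members 7 were called lower and 0 higher, against 0.798% and 0.889% of all tested genes, and 23 of the 26 had a negative change. In 17 every shCYTH4 library lay below every shControl library and in 0 above, against 9.43% and 16% of all tested genes. Of the 7 called, NFKBIZ passed the filter through shControl libraries alone, so its direction was fixed by the filter. The median log2 change was -0.37. NFKBIZ, a nuclear IkB protein that switches on secondary response genes, changed most, with 0.302, 0.291 and 0.191 FPKM in shCYTH4, against 1.40, 1.92 and 1.70 FPKM in shControl (log2 -2.70, SE 0.23, adjusted p = 0.000411). The arms were far apart, although all levels were low. The NFKBIZ locus overlaps NXPE3 on the same strand, so its counts may include reads of that gene.

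RELB, the partner subunit of the noncanonical pathway, had 3.75, 3.19 and 3.62 FPKM in shCYTH4, against 8.30, 11.2 and 7.96 FPKM in shControl (log2 -1.43, SE 0.18, adjusted p = 0.00261). NFKB2, which gives the p52 subunit, had 2.89, 3.44 and 3.78 FPKM in shCYTH4, against 5.96, 8.09 and 6.12 FPKM in shControl (log2 -1.04, adjusted p = 0.0159). IER3, an early response gene under NF-kB, had 1.16, 0.941 and 1.12 FPKM in shCYTH4, against 3.77, 8.27 and 3.18 FPKM in shControl (log2 -2.29, adjusted p = 0.00961). In all 3 genes the arms were apart, and shControl replicate 2 was the highest library. The feedback deubiquitinase TNFAIP3, A20, averaged 3.66 ± 0.710 FPKM in shCYTH4 and 7.24 ± 0.948 FPKM in shControl (log2 -1.03, adjusted p = 0.0188), and ICAM1, the adhesion ligand, had 6.09, 8.16 and 8.92 FPKM in shCYTH4, against 14.9, 15.0 and 12.6 FPKM in shControl (log2 -0.93, adjusted p = 0.0316). The ICAM1 call was kept in 2 of the 6 fits without 1 library. The seventh called member was TNFAIP2 (log2 -0.88, adjusted p = 0.0228).

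The subunits of the canonical pathway were not called. RELA averaged 17.3 ± 1.48 FPKM in shCYTH4 and 19.6 ± 1.72 FPKM in shControl with overlapping arms (adjusted p = 0.43), and NFKB1 averaged 2.98 ± 0.191 FPKM in shCYTH4 and 3.58 ± 0.480 FPKM in shControl (adjusted p = 0.316). NFKBIA, the inhibitor IkB-alpha, had 13.2, 10.7 and 10.2 FPKM in shCYTH4, against 15.4, 21.7 and 17.3 FPKM in shControl, arms that did not overlap but did not pass (log2 -0.73, adjusted p = 0.0588). NFKBIZ, RELB and IER3 were called in each fit without 1 library. The list had 3 calls without any 1 of the shControl libraries, where NFKB2 was at 0.0547 to 0.0771, and 6 in the fit over all 12 libraries.

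Of 32 listed chemokines 6 were tested and 4 of them were called lower, against 0.798% of all tested genes. CXCL14, CXCL10 and CXCL8 passed the filter through shControl libraries alone, so their direction was fixed by the filter, and of the chemokines left out CXCL16 averaged 0.431 FPKM in shCYTH4 and 0.221 FPKM in shControl. CXCL14, a chemokine that draws monocytes and dendritic cell precursors, had the largest fitted change of those detected in both arms, with 0.228, 0.318 and 0.165 FPKM in shCYTH4, against 8.62, 9.11 and 7.37 FPKM in shControl (log2 -5.18, SE 0.27, adjusted p = 1.64e-05). CXCL10, which draws T cells, was at 0 FPKM in all 3 shCYTH4 libraries, against 1.61, 5.15 and 2.08 FPKM in shControl. With a floor of 12 counts per library, its level in shCYTH4 was at least 22.6-fold lower (adjusted p = 0.00123). CCL2, a monocyte attractant, had 1.6, 1.24 and 1.25 FPKM in shCYTH4, against 4.36, 2.58 and 4.26 FPKM in shControl (log2 -1.50, adjusted p = 0.0151), and lost its call without shControl replicate 1 (0.0878) or 3 (0.0945). CCL5 had 14.2, 13.1 and 13.9 FPKM in shCYTH4, against 28.9, 21.0 and 22.3 FPKM in shControl (log2 -0.86, adjusted p = 0.0316), a call that held only without shCYTH4 replicate 1. CXCL8, interleukin 8, had 0.803, 0.762 and 0.532 FPKM in shCYTH4, against 1.13, 3.76 and 1.80 FPKM in shControl. It was not called (adjusted p = 0.0649), and shControl replicate 2 was the highest library by far. The chemokines had 2 calls without shControl replicate 1 or 3, and 5 in the fit over all 12 libraries.

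C3, IL4I1 and EBI3 were among the larger falls. C3 and EBI3 passed the filter through shControl libraries alone, so their direction was fixed by the filter. C3, the central complement protein, had the smallest p of all tested genes, with 0.220, 0.238 and 0.267 FPKM in shCYTH4, against 4.84, 5.09 and 4.21 FPKM in shControl (log2 -4.30, SE 0.18, adjusted p = 2.72e-06). IL4I1, a secreted amino acid oxidase that breaks down phenylalanine and tryptophan, had 3.06, 2.78 and 2.96 FPKM in shCYTH4, against 23.5, 43.6 and 17.3 FPKM in shControl (log2 -3.31, adjusted p = 0.000627). EBI3, a subunit that pairs with others to form interleukins, had 0.562, 0.116 and 0.424 FPKM in shCYTH4, against 3.15, 3.83 and 2.34 FPKM in shControl (log2 -3.12, adjusted p = 0.00756), and lost its call without shControl replicate 1 (0.0704). These 3 genes separated the arms completely, with the widest shControl spread in IL4I1. C3 overlaps GPR108, and IL4I1 overlaps NUP62, each on the same strand, so part of their counts may belong to the neighbour. IL4I1 also overlaps ATF5, called higher above, on the other strand. Whether counting used the strand is not given, so the levels of IL4I1 and ATF5 are uncertain to that extent. Of the other cytokines, TNF averaged 14.5 ± 0.592 FPKM in shCYTH4 and 19.8 ± 1.04 FPKM in shControl (adjusted p = 0.106), and IL1B averaged 1.57 ± 0.069 FPKM in shCYTH4 and 2.22 ± 0.367 FPKM in shControl (adjusted p = 0.205).

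Promoters of the genes called lower were searched for the NF-kB consensus on both strands, which 5.91% of all windows and 8.67% of the tested genes with a window hold. It occurred in 9 of the 52 genes called lower with a window and in 8 of the 74 called higher. These counts are not compared, because windows covered too few of either set. The consensus was also in 12 of the 22 genes of the NF-kB list with a window, a list put together from known targets. Matches are given for 4 genes that fell, because their change was large or they belong to the feedback loop itself. Each stretch has 60 bases in the direction of the gene, with the chosen match in capitals (reversed and complemented for TNFAIP3). The TNFAIP3 stretch holds a further match in lower case, 55 to 46 bases before the start, and the NFKB2 stretch an overlapping match. NFKBIZ and NFKB2 had other matches that are not shown. They are NFKBIZ at chr3:101827742-101827801 on the + strand, CXCL10 at chr4:76023640-76023699 on the - strand and again nearer its start at chr4:76023585-76023644, NFKB2 at chr10:102394446-102394505 on the + strand and TNFAIP3 at chr6:137867167-137867226 on the + strand.
NFKBIZ: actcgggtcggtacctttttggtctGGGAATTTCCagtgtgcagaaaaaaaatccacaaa
CXCL10 distal: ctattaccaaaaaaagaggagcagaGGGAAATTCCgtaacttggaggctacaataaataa
CXCL10 proximal: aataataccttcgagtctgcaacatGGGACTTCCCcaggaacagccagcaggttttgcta
NFKB2: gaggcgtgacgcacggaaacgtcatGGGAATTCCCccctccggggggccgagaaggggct
TNFAIP3: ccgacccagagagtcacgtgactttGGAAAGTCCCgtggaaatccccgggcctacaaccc

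MHC class II genes, which present antigen to helper T cells, were lower as well. Of 13 tested members 4 were called lower and 0 higher, against 0.798% and 0.889% of all tested genes, and 8 had every shCYTH4 library below every shControl library, against 9.43%. The median log2 change was -0.57, but 4 members had a positive change, 1 of them with every shCYTH4 library above. HLA-DRA, the invariant alpha chain of HLA-DR, had 15.2, 18.5 and 18.8 FPKM in shCYTH4, against 41.5, 68.1 and 39.9 FPKM in shControl (log2 -1.56, SE 0.22, adjusted p = 0.00519). HLA-DRB1, its beta chain, had 3.45, 3.73 and 3.28 FPKM in shCYTH4, against 7.41, 8.90 and 6.83 FPKM in shControl (log2 -1.20, adjusted p = 0.00482). Both separated the arms with shControl replicate 2 highest, and their calls held in each fit without 1 library. HLA-DPA1 averaged 0.523 ± 0.073 FPKM in shCYTH4 and 1.82 ± 0.446 FPKM in shControl (log2 -1.85, adjusted p = 0.00271), and HLA-DQB1 averaged 1.54 ± 0.141 FPKM in shCYTH4 and 3.34 ± 0.604 FPKM in shControl (log2 -1.17, adjusted p = 0.0118), a call lost without shControl replicate 2 (0.0605). HLA-DPA1 passed the filter through shControl libraries alone, so its direction was fixed by the filter. HLA genes share sequence, so reads of one can be counted to another. CIITA, the master switch of these genes, averaged 0.813 ± 0.251 FPKM in shCYTH4 and 1.58 ± 0.234 FPKM in shControl and did not pass (log2 -1.01, adjusted p = 0.0675). CD74, the invariant chain, averaged 114 ± 8.66 FPKM in shCYTH4 and 162 ± 17.7 FPKM in shControl (log2 -0.57, adjusted p = 0.0671). The arms of both were apart. In the fit over all 12 libraries 6 members were called lower.

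The Y box letters CTGATTGG of class II promoters, which 3.97% of all windows and 6.45% of the tested genes with a window hold, were present before both HLA-DRB1 and HLA-DQB1, but not in the windows of HLA-DPA1. Among genes with a window the letters occurred in 6 of 52 called lower and 7 of 74 called higher, not compared for the same lack of windows. CHAC1, SESN2, DDIT3 and AARS1 were among the 7. The matches before HLA-DRB1 and HLA-DQB1 are shown in capitals, 58 bases each on the - strand, HLA-DRB1 at chr6:32589865-32589922 and HLA-DQB1 at chr6:32666716-32666773.
HLA-DRB1: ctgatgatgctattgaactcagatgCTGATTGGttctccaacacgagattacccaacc
HLA-DQB1: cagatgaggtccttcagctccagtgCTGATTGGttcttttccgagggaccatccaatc

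Of 19 tested MHC class I genes 1, CALR, was called lower, against 0.798% of all tested genes. HLA-B averaged 155 ± 15.0 FPKM in shCYTH4 and 179 ± 13.9 FPKM in shControl (adjusted p = 0.322). Of 22 tested interferon-stimulated genes 2 were called higher, against 0.889% of all tested genes, and 0 lower. In 8 every shCYTH4 library lay above shControl and in 0 below, against 16% and 9.43%, and the median log2 change was 0.11. APOL6, an apolipoprotein L family member, had 2.65, 3.54 and 3.77 FPKM in shCYTH4, against 0.714, 0.597 and 1.08 FPKM in shControl (log2 2.01, adjusted p = 0.00212) and was called in every fit without 1 library. XAF1, a proapoptotic interferon target, had 3.03, 2.87 and 3.13 FPKM in shCYTH4, against 0.354, 1.12 and 1.19 FPKM in shControl (log2 1.71, adjusted p = 0.0442). Its arms were apart, but it was called only without shControl replicate 1 (0.0123) among the fits without 1 library, with 0.0902 to 0.141 in the others.

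**Figure D3:**
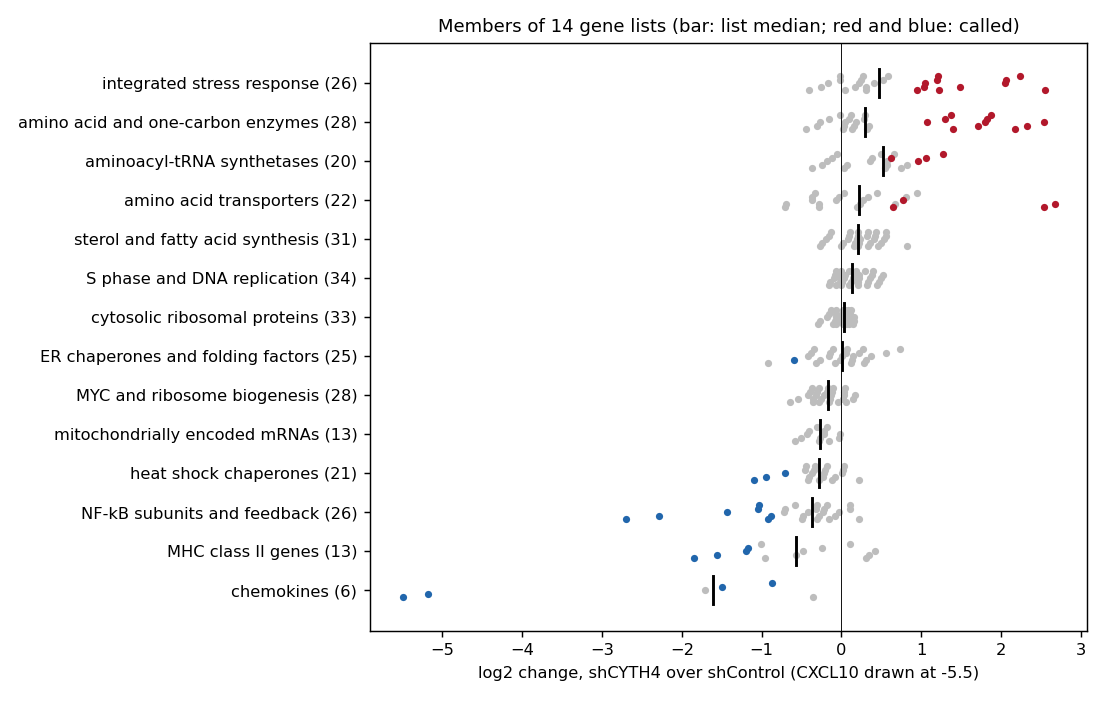
Log2 change, shCYTH4 over shControl, of every tested member of 14 gene lists, 1 point per gene, red where called higher and blue where called lower, with a bar at the median of the list; CXCL10 is drawn at -5.5. The medians run from 0.52 for the aminoacyl-tRNA synthetases and 0.47 for the stress response to -0.57 for MHC class II and -1.61 for the 6 tested chemokines, 3 of which passed the filter through shControl alone. Those of the ribosomal proteins (0.03) and endoplasmic reticulum chaperones (0.01) lie near the 0.02 of all tested genes. The other lists lie between 0.29 for the amino acid and one-carbon enzymes and -0.37 for the NF-kB list.

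**Figure D4:**
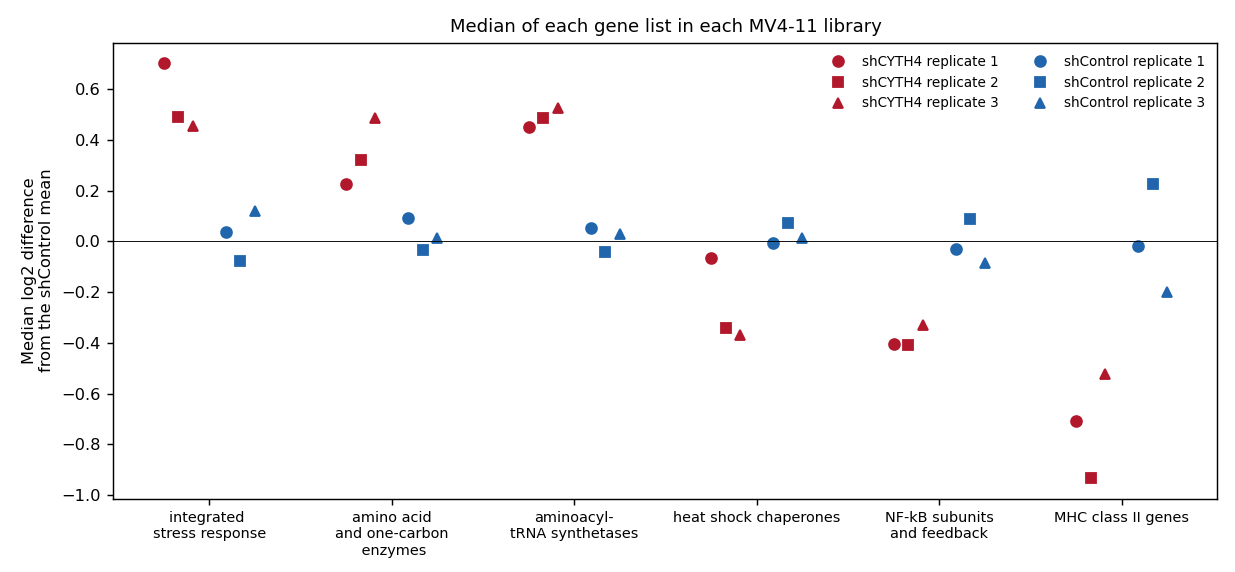
Median log2 difference of 6 gene lists from the mean of the shControl libraries, in each of the 3 shCYTH4 (red) and 3 shControl (blue) libraries. The stress response list is at 0.70, 0.49 and 0.45 in shCYTH4 and at 0.04, -0.08 and 0.12 in shControl, and the NF-kB list at -0.40, -0.41 and -0.33 in shCYTH4 and at -0.03, 0.09 and -0.09 in shControl.

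The medians of the lists in each library separated the arms for the stress response, NF-kB and class II lists alike. The heat shock list did so by less: its median was -0.06, -0.34 and -0.37 in shCYTH4 and -0.01, 0.07 and 0.01 in shControl, so shCYTH4 replicate 1 lay near the shControl libraries. Among the shCYTH4 libraries, replicate 1 also held the highest median of the stress response list and the lowest of the enzyme list.

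Myeloid markers moved in both directions. The 16 listed monocyte genes, of which 9 had at least 1 FPKM, summed to 1263 to 1358 FPKM in shCYTH4 and 1795 to 2018 FPKM in shControl, nearly all of it LYZ. LYZ had 1097, 1147 and 1114 FPKM in shCYTH4, against 1619, 1646 and 1855 FPKM in shControl (log2 -0.66, SE 0.10, adjusted p = 0.0111), a call lost without shCYTH4 replicate 2 (0.056), shControl replicate 2 (0.0506) or shControl replicate 3 (0.0779). Other genes of the list lay the other way without a call: the Fc receptor FCGR1A averaged 45.1 FPKM in shCYTH4 and 33.8 FPKM in shControl, S100A9 averaged 14.2 FPKM in shCYTH4 and 8.24 FPKM in shControl, and the lysosomal protein CD68 averaged 107 FPKM in shCYTH4 and 97 FPKM in shControl. The 14 granulocyte and progenitor genes, of which 7 had at least 1 FPKM, summed to 1961 to 2282 FPKM in shCYTH4 and 1531 to 1930 FPKM in shControl. The arms of this sum did not overlap, but 0 of its genes were called and most of the sum was PRTN3 and AZU1, while the elastase ELANE averaged 187 FPKM in shCYTH4 and 186 FPKM in shControl. In all 6 libraries 2 of its genes were at 0. PRSS57, a serine protease of neutrophil granules that is outside that list, had 280, 252 and 250 FPKM in shCYTH4, against 175, 123 and 139 FPKM in shControl (log2 0.78, adjusted p = 0.0326). S100A8, a calcium-binding protein of monocytes and neutrophils that is on the monocyte list, had 3.10, 2.39 and 1.46 FPKM in shCYTH4, against 0.599, 0.292 and 0.701 FPKM in shControl (log2 2.02, adjusted p = 0.0304). PRSS57 was called in 2 and S100A8 in 3 of the 6 fits without 1 library. S100A8 passed the filter through shCYTH4 libraries alone, so its direction was fixed by the filter. The part of these markers in the results above was not tested, and in bulk RNA fewer cells of a kind and less RNA per cell cannot be told apart.

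Calls were made for 1 of 19 growth factor receptors, 2 of 24 integrins and adhesion partners (ICAM1 and CD44) and 3 of 24 immediate early and ERK feedback genes (IER3, DUSP4 and ATF3), against 1.69% of all tested genes. IL3RA, the alpha chain of the interleukin 3 receptor, was the called receptor, with 47.7, 44.9 and 42.7 FPKM in shCYTH4, against 28.6, 27.9 and 31.3 FPKM in shControl (log2 0.57, adjusted p = 0.0437). FLT3, the mutated kinase of this line, averaged 84.6 ± 5.97 FPKM in shCYTH4 and 61.4 ± 12 FPKM in shControl and was not called (adjusted p = 0.195). CD44, the hyaluronan receptor, had 27.7, 28.1 and 28.4 FPKM in shCYTH4, against 38.3, 41.9 and 39.7 FPKM in shControl (log2 -0.56, adjusted p = 0.0309). IL3RA and CD44 separated the arms with narrow spread, and each call held only without shCYTH4 replicate 1 among the fits without 1 library, with adjusted p up to 0.237 and 0.181. DUSP4, a phosphatase that switches off ERK, had 0.509, 0.648 and 0.550 FPKM in shCYTH4, against 1.55, 1.45 and 1.69 FPKM in shControl (log2 -1.51, adjusted p = 0.00234) and was called in every fit without 1 library. DUSP4 passed the filter through shControl libraries alone and ATF3 through shCYTH4 libraries alone, so their direction was fixed by the filter.

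Several large changes lay outside these groups. G0S2, an inhibitor of the lipase that breaks down stored fat, had 3.58, 3.86 and 3.39 FPKM in shCYTH4, against 0.668, 0.539 and 0.843 FPKM in shControl (log2 2.33, adjusted p = 0.00153). SYTL1, a RAB27 effector of vesicle traffic whose promoter is shown above, had 8.18, 7.18 and 6.57 FPKM in shCYTH4, against 2.34, 2.25 and 2.65 FPKM in shControl (log2 1.54, adjusted p = 0.000627). CHST2, a sulfotransferase that builds selectin ligands, had 2.19, 1.98 and 2.07 FPKM in shCYTH4, against 9.27, 9.54 and 8.39 FPKM in shControl (log2 -2.18, adjusted p = 8.94e-05). The arms of these 3 genes were far apart. ASB2, a ubiquitin ligase subunit that targets filamins, had 0.898, 0.776 and 0.853 FPKM in shCYTH4, against 3.06, 2.42 and 2.80 FPKM in shControl (log2 -1.76, adjusted p = 0.00102). IGKC, the immunoglobulin kappa constant region, had 9.28, 8.01 and 7.10 FPKM in shCYTH4, against 31.9, 36.5 and 30.4 FPKM in shControl (log2 -2.07, adjusted p = 0.000411). FLRT1, a fibronectin leucine-rich transmembrane protein, had 2.00, 3.23 and 3.77 FPKM in shCYTH4, against 0.901, 0.354 and 0.883 FPKM in shControl (log2 2.02, adjusted p = 0.0249), overlaps MACROD1 on the other strand, and was called in 2 of the 6 fits without 1 library. G0S2, SYTL1, CHST2, ASB2 and IGKC were called in all 6. G0S2 and FLRT1 passed the filter through shCYTH4 libraries alone and ASB2 through shControl libraries alone, so their direction was fixed by the filter.

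Several lists held no called gene, against 1.69% of all tested genes, a share at which lists of this size can hold 0. There were 0 calls of 31 tested genes of sterol and fatty acid synthesis, although 25 of them had a positive change (median log2 0.21). In 9 every shCYTH4 library lay above every shControl library and in 0 below, against 16% and 9.43% of all tested genes. Of 34 S phase genes 0 were called, but 23 had a positive change (median log2 0.13). Of these 34, 13 lay wholly above shControl and 0 wholly below, against the same 16% and 9.43%. Of 29 mitosis genes 1 lay wholly above and 5 wholly below, and 1 was called lower, against 0.798% of all tested genes. It was CDC20, an activator of the anaphase-promoting complex, which averaged 60.3 ± 7.38 FPKM in shCYTH4 and 96.0 ± 7.02 FPKM in shControl (log2 -0.72, adjusted p = 0.0316). That call was kept in 2 of the 6 fits without 1 library. The 28 genes of MYC and ribosome biogenesis had 0 calls and a median log2 change of -0.17, with 21 of 28 negative. In that list 9 genes lay wholly below shControl and 1 wholly above, against 9.43% and 16% of all tested genes. The 13 mitochondrially encoded mRNAs had 0 calls and all 13 had a negative change (median -0.27), with overlapping arms in each. There were also 0 calls among 33 ribosomal protein genes, 38 nuclear-encoded respiratory chain subunits, 22 myeloid transcription factors, 17 HOX genes and cofactors, 17 BCL2 family genes, 30 lysosome and autophagy genes and 27 PI3K, AKT and mTOR components. These counts of 0 lie near the share over all tested genes and do not show that a process was unchanged.

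The response of MV4-11 was set against that of THP-1 with the difference of the 2 responses in 1 fit over all 12 libraries. It was called for 107 of 12350 genes tested (0.866%), and 36 of the 184 genes called in MV4-11 were among them (19.6% of the MV4-11 calls and 33.6% of the 107). Both sets of calls use the same MV4-11 libraries, so an overlap above 0.866% is built in and is no evidence of a difference between lines. LYZ had opposite changes, with log2 -0.68 in MV4-11 and 0.98 in THP-1, both called (difference -1.67, SE 0.17, adjusted p = 0.000319). C3 had log2 -4.33 in MV4-11 and 0.34 in THP-1 (difference -4.66, SE 0.45, adjusted p = 0.000319). NFKB2 had log2 -1.07 in MV4-11 and 0.28 in THP-1 (difference -1.35, SE 0.23, adjusted p = 0.0138), and NFKBIZ had log2 -2.72 in MV4-11 and -0.23 in THP-1 (difference -2.50, SE 0.36, adjusted p = 0.00598). For these 4 genes the difference was called in each of the 6 fits without 1 MV4-11 library.

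IER3 was called lower in both lines, with log2 -2.31 in MV4-11 and -2.61 in THP-1 (difference 0.30, SE 0.55, adjusted p = 0.856), at 0.053 FPKM with shCYTH4 and 0.330 FPKM with shControl in THP-1.

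The stress response targets TRIB3, DDIT4 and ASNS did not pass this test of the difference. TRIB3 had log2 2.52 in MV4-11 and 0.09 in THP-1 (difference 2.43, SE 0.62, adjusted p = 0.114), and DDIT4 had log2 2.04 in MV4-11 and -0.84 in THP-1 (difference 2.87, SE 0.59, adjusted p = 0.0518). ASNS had log2 2.30 in MV4-11 and -0.11 in THP-1 (difference 2.40, SE 0.80, adjusted p = 0.222). In THP-1 their levels varied widely between libraries, with ASNS at 11.3 ± 10.2 FPKM with shCYTH4 and 11.2 ± 2.74 FPKM with shControl (SD, n = 3 each). CYTH4 had log2 0.01 in MV4-11 and -0.89 in THP-1, where this fit called it lower (adjusted p = 0.0338). Its level in THP-1 was 15.4 ± 0.366 FPKM with shCYTH4 and 26.3 ± 5.64 FPKM with shControl. The difference between lines was not called for CYTH4 (0.90, SE 0.26, adjusted p = 0.126).

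**Figure D5:**
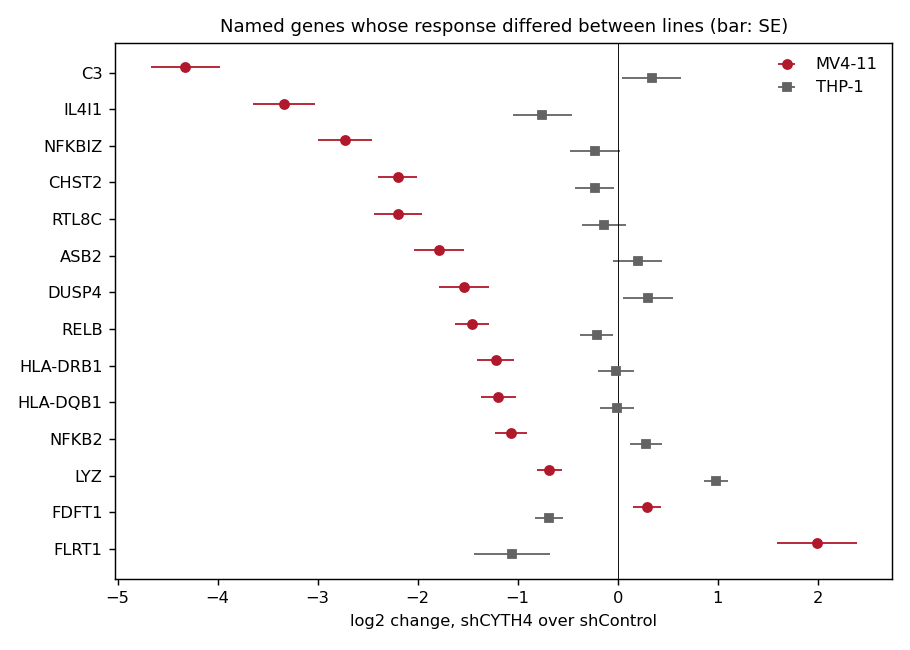
Log2 change, shCYTH4 over shControl, of 14 named genes whose change differed between the lines, in MV4-11 (red) and THP-1 (grey) from the fit over all 12 libraries, with bars for 1 SE; CXCL10 and CXCL14 are left out for their scale. LYZ lies at -0.68 in MV4-11 and 0.98 in THP-1, and C3 at -4.33 and 0.34.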

How the data were processed

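The members and gene lists were chosen with earlier results of these data known. Libraries were strand-marked by dUTP, poly(A)-selected and read in pairs of 150 bases, per the labels. The deposited table holds 34626 genes and 24 value columns, 0 of them without a sample: estimated counts in whole numbers, not normalized, per the file headers, and FPKM as the authors deposited them. Many low counts are multiples of 4, so a fragment may stand as 4 counts, and the floor of 12 counts per library would be 3 fragments. The column short forms SC and Sh were read as shControl and shCYTH4. The submitters' processing notes name fastp, StringTie and edgeR, with no role. Not given in the sources used here are the aligner, genome build, annotation and whether counting used the strand. Positions of genes are those of the table.

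Genes with at least 1 FPKM in at least 3 of the 6 libraries were tested on the estimated counts with edgeR 4.0.16 under R 4.3.3 (TMM scaling, robust quasi-likelihood, 2 arm means, 4 residual degrees of freedom, two-sided, Benjamini-Hochberg over 10907 genes, called under 0.05). Log2 changes are shCYTH4 over shControl, SE is that of the fitted change, and ± is the SD of 3 libraries. The difference between lines used 4 group means over 12 libraries. Intervals cover the spread between these libraries and floors counting error only. The code was tested on simulated counts.

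The rule named CYTH4 and, among called genes with a symbol, non-overlapping arms and at least 2 FPKM in the higher arm, the 12 largest changes, 5 smallest p-values and 5 highest levels per direction, with up to 4 called members per list and the 2 most abundant members of lists without calls. ALDH18A1, ARF6, ATF4, ATF5, CD74, CEBPB, CIITA, CXCL8, DDIT3, FLT3, HLA-B, HSPA5, IL1B, NFKB1, NFKBIA, PHGDH, PSPH, RELA, SHMT2, SLC7A5, TNF, TNFAIP2 and TNFAIP3 and those in the closing paragraphs were named after their values were seen. Alternatives were DESeq2 1.42.0, limma 3.58.1 on log2(FPKM + 1) and log2(FPKM + 0.1), other scalings and filters, counts divided by 4, no robust moderation, a threshold of 0.01, all 12 libraries, the replicate number as a block, and each library left out in turn. Results for some items are not reported here.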

Additional observations from a re-analysis of the deposited data

Results flagged for a closer look

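For 16 named genes the response to shCYTH4 differed between MV4-11 and THP-1 by the test of the difference itself in the edgeR fit over all 12 libraries. Values are the MV4-11 log2 change minus the THP-1 one, with SE and adjusted p. The rule that named these genes drew on the same MV4-11 libraries, so this test is not independent of their choice. Of the genes described above in both lines, the difference was -4.66 for C3 (0.45, 0.000319), -1.67 for LYZ (0.17, 0.000319), -2.50 for NFKBIZ (0.36, 0.00598) and -1.35 for NFKB2 (0.23, 0.0138). Among other genes lower in MV4-11, CHST2 differed by -1.97 (0.28, 0.00425), with -2.20 in MV4-11 and -0.23 in THP-1. RTL8C, a gene derived from a retrotransposon, differed by -2.06 (0.32, 0.00982), with -2.20 in MV4-11 and -0.14 in THP-1. IL4I1 differed by -2.58 (0.41, 0.0133), with -3.34 in MV4-11 and -0.75 in THP-1, and ASB2 by -1.99 (0.35, 0.0162), with -1.79 in MV4-11 and 0.20 in THP-1. These 8 differences were called in each of the 6 fits that left out 1 MV4-11 library.

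The other 8 were not called in all of those fits. RELB differed by -1.24 (0.24, 0.026), with -1.45 in MV4-11 and -0.21 in THP-1. DUSP4 differed by -1.83 (0.35, 0.0242), with -1.53 in MV4-11 and 0.30 in THP-1. HLA-DRB1 differed by -1.20 (0.25, 0.0378), with -1.22 in MV4-11 and -0.02 in THP-1, and HLA-DQB1 by -1.19 (0.24, 0.0348), with -1.19 in MV4-11 and -0.01 in THP-1. CXCL14 differed by -8.72 (1.79, 0.0397) and CXCL10 by -10.14 (1.87, 0.0366), fitted values that rest on arms at or near 0 and are no measure of size. Among genes higher in MV4-11, FLRT1 differed by 3.05 (0.56, 0.0303), with 1.99 in MV4-11 and -1.06 in THP-1. FDFT1, squalene synthase, differed by 0.98 (0.20, 0.0331), with 0.30 in MV4-11, where it was not called, and -0.68 in THP-1. The highest adjusted p in the fits without 1 library was 0.0775 for RELB, 0.0682 for DUSP4, 0.098 for HLA-DRB1, 0.0938 for HLA-DQB1, 0.0735 for CXCL14, 0.0807 for CXCL10, 0.0771 for FLRT1 and 0.075 for FDFT1.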

How the results depend on the processing

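All 184 called genes kept their direction under each of the other fits. The count of 184 calls (97 higher, 87 lower) became 629 (327, 302) with DESeq2, which called all 184, 123 (56, 67) with all 12 libraries, which kept 99 of them, and 77 (39, 38) at an adjusted p under 0.01. Leaving out 1 library gave 83 to 398 calls, 46 to 162 higher and 37 to 236 lower. The other scalings, filters and tools gave 157 to 226 calls. The labels do not say whether replicate numbers pair the libraries, and correlations of deviations between arms were -0.24, -0.16 and -0.09. With the replicate block there were 23 calls (12, 11), all among the 184. Of the 63 called genes named by the rule, 45 were then not called. The block left 5 enzyme, 2 stress response, 2 chemokine, 1 transporter and 1 NF-kB call. It left 0 calls in the class II, heat shock and synthetase lists. The log2 change of CYTH4 ranged from -0.0823 to 0.167 without 1 library. The difference between the lines, called for 107 genes, was called for 47 with the replicate block and for 47 to 120 without 1 MV4-11 library. Uncalled genes that changed sign were PCNA (-0.0472 to 0.213 without 1 library), INPP5D (-0.247 to 0.0828 without 1 library), ATP5F1B (0.003 with library totals, 0.0258 with quantile scaling), FBL (0.017 with library totals, 0.0063 with either limma fit, -0.152 to 0.0256 without 1 library) and MCM7 (0.0398 with library totals, 0.0312 and 0.031 with the limma fits, 0.0097 with quantile and 0.0164 with upper quartile scaling, -0.098 to 0.0714 without 1 library). The cause was not tested for any of these. With 3 libraries per arm, a p that misses the threshold does not show that a gene is unchanged.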

Other observations

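Called genes outside the lists and the rule, chosen after their values were seen, are given here. CD70, a ligand of the TNF family, averaged 14.3 ± 0.456 FPKM in shCYTH4 and 35.5 ± 3.68 FPKM in shControl (log2 -1.37, adjusted p = 0.00108). ZC3H12A, regnase 1, an RNase that degrades cytokine mRNAs, averaged 3.32 ± 0.462 FPKM in shCYTH4 and 8.64 ± 0.672 FPKM in shControl (log2 -1.43, adjusted p = 0.00216). NCF1, a subunit of the phagocyte NADPH oxidase, averaged 10.4 ± 0.590 FPKM in shCYTH4 and 22.3 ± 2.19 FPKM in shControl (log2 -1.16, adjusted p = 0.00183), but has near-identical copies that can share its reads. ADAM8, a membrane protease, averaged 1.17 ± 0.250 FPKM in shCYTH4 and 3.30 ± 0.323 FPKM in shControl (log2 -1.54, adjusted p = 0.00458). All 4 of these falls were called in each of the 6 fits without 1 library.

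Among called rises outside the lists, NLRP12, a NOD-like receptor, averaged 1.89 ± 0.388 FPKM in shCYTH4 and 0.195 ± 0.043 FPKM in shControl (log2 3.21, adjusted p = 0.000411). IL7R, the interleukin 7 receptor alpha chain, averaged 1.31 ± 0.027 FPKM in shCYTH4 and 0.330 ± 0.1 FPKM in shControl (log2 1.93, adjusted p = 0.00216). BCAT1, the cytosolic branched-chain aminotransferase, averaged 3.34 ± 0.273 FPKM in shCYTH4 and 1.13 ± 0.336 FPKM in shControl (log2 1.51, adjusted p = 0.0039). CST7, cystatin F, averaged 18.1 ± 0.947 FPKM in shCYTH4 and 7.76 ± 0.233 FPKM in shControl (log2 1.16, adjusted p = 0.0046). These 4 rises were also called in each of the 6 fits, and all 8 genes separated the arms without overlap. NLRP12 and IL7R passed the filter through shCYTH4 libraries alone, so their direction was fixed by the filter.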
